A study of Homo sapiens with 6 samples.

Results

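Core target genes of the transcription factor p53, which switches them on in many human cell types, were followed across 2 groups of ARPE-19 arrays. The 10 genes are CDKN1A, MDM2, GDF15, ZMAT3, CCNG1, TIGAR, RRM2B, PPM1D, PLK2 and TP53INP1. They were chosen by name, and every probe set of the deposited table that the platform annotation assigns to one of these symbols alone was taken. This gave 46 probe sets for 10 genes, out of 44988 probe sets with a single symbol for 18132 genes. ARPE-19 is an established line of human retinal pigment epithelium. The 0 h group (3 arrays) received no enzyme, and the 3 h group (3 arrays) received 10 mU/ml glucose oxidase for 3 h, an enzyme that releases hydrogen peroxide as it oxidises glucose. The treatment protocol and the series design have every culture transfected with GFP, 48 h before the exposure. The sample descriptions name plain GFP for the 0 h arrays and a construct of GFP with satellite alpha, the repeat of human centromeres, for the 3 h arrays, so the transfected construct may differ along with the treatment. No group was kept for 3 h without enzyme. Triplicates are stated, but no label says that they were separate cultures, and p-values then measure only the spread between these samples, which may be technical. In bulk RNA, fewer cells of a type and less RNA per cell cannot be told apart.

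p53 is kept low in resting cells by MDM2, a ubiquitin ligase that marks it for destruction, and DNA damage or oxidative stress frees it from this control. It then binds paired copies of a short motif near its target genes. Among the targets, MDM2 and the phosphatase PPM1D (WIP1) damp the pathway, CDKN1A (p21) and PLK2 act on the cell cycle, TIGAR and RRM2B serve sugar metabolism and nucleotide supply, and GDF15 is a secreted stress signal.

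Promoter sequences were examined first, for matches to the p53 motif close to the start sites. RefSeq (GRCh38.p14) gave 13 start sites for 8 of the 10 genes, each with 250 bases before it and 50 after it. MDM2 has start sites in 2 places with 2 listed at each, an upstream promoter and one inside the first intron that is known as the p53-responsive promoter. A pair of p53 half-sites with no spacer and up to 3 mismatches at any position was found in 5.20% of all 35116 promoters of this length, and in 3 of the 13 examined here: the promoter of GDF15 and 2 overlapping ones of MDM2. The intronic promoter of MDM2 held 2 such pairs, the first with 2 mismatches and the second with 3, which are capitalised below. The stretch from PLK2 is shown with it because 3 of that gene's 4 probe sets rose. It held the only half-site without a mismatch among the 13 promoters, again in capitals. As 6.63% of all promoters hold one, 1 among 13 lies near the background and does not set PLK2 apart. The upstream promoter of MDM2 is shown for comparison with the intronic one, and no pair or half-site of these letters was found in it. The half-site reads the same on both strands, so 1 strand was searched.
MDM2 intronic promoter, chr12:68808767-68809016, plus strand: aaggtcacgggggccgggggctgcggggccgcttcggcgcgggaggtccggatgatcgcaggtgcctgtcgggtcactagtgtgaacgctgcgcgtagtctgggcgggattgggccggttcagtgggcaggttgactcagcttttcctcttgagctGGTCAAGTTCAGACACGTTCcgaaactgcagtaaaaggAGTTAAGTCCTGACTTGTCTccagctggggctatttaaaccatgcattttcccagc
MDM2 upstream promoter, chr12:68807922-68808171, plus strand: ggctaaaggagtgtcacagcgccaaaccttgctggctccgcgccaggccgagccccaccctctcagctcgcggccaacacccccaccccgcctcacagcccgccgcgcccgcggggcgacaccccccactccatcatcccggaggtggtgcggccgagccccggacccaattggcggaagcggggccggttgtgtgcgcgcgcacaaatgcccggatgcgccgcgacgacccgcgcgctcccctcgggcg
PLK2 promoter, chr5:58460087-58460336, minus strand: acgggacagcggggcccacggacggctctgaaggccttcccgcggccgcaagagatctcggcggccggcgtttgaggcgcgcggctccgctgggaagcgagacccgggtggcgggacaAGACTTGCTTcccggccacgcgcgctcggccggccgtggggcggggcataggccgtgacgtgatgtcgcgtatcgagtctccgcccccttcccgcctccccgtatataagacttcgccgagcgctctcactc
GDF15 held 1 pair just after its start, at chr19:18386186-18386205 on the plus strand, with 3 mismatches:
GDF15 pair: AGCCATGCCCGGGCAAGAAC
A match in these letters describes the sequence and does not show that p53 bound there. A stricter search that kept the central letters of each half-site intact, with up to 2 mismatches and a spacer of up to 13 bases, matched 1.46% of all promoters and 0 of the 13. DNA outside these windows was not searched, so p53 sites further from the start sites would be missed.

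Arrays carried a log2 value for each probe set, with medians between 5.29 and 5.34. The 5′ minus 3′ difference of the actin control, a measure of RNA integrity and labelling, went from -2.06 ± 0.07 to -1.20 ± 0.06 (SD, n = 3, two-sided exact permutation p = 0.1, the smallest that 3 against 3 allows), and all 24 poly-A spike probe sets were lower on every 3 h array. The median log2 change of these poly-A spikes was -0.60. Of 18 hybridization spike probe sets 17 were also lower on every 3 h array, with a median change of -0.31 over the 18. The part of these control shifts in the results below was not tested. A floor at log2 4.64, the 40th percentile of probe set means, marks what was tested. The 16 retinal pigment epithelium markers with a probe set had a mean level of 6.70 to 6.72 on the 0 h arrays and 6.78 to 6.86 on the 3 h arrays. Of these 12 were at or above the floor, while TYRP1 and the visual cycle genes RPE65, RLBP1 and LRAT were under it. Among the 12, KRT8, KRT18, MITF, OTX2 and TIMP3 rose, by 0.19 (OTX2) to 0.53 (TIMP3), and SERPINF1 and SLC6A15 fell by 0.40 and 0.34. The call of OTX2 ended without 0 h replicate 1 (0.17), and that of MITF with the mean over its probe sets (0.10). Of the markers of other cells, PDGFRB rose by 0.59 and POSTN, PDE6B and SYT1 fell by 0.50, 0.36 and 0.22. At or above the floor were 4 of 10 fibroblast and mesenchyme markers with a probe set, 2 of 5 of blood and 3 of 4 of endothelium. For photoreceptors and neurons it was 7 of 7. Mean levels on the 0 h arrays were 5.63 to 5.69 for photoreceptors and neurons and 4.76 to 4.84 for endothelium. They were 4.75 to 4.78 for fibroblasts and mesenchyme and 3.71 to 3.94 for blood. The higher mean of the retinal pigment epithelium list includes the keratins KRT8 and KRT18, which averaged 11.48 and 12.22 at 0 h. PTPRC, the pan-leukocyte marker, the endothelial marker CDH5 and the fibroblast markers COL1A2, COL3A1, DCN, LUM, PDGFRA and THY1 were under the floor.

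In all, 41 of the 46 member probe sets passed the floor, and 12 of these rose, 7 fell and 22 did not pass the test at an adjusted p of 0.05 (limma, Benjamini-Hochberg over 29576 probe sets). Over all tested probe sets 51.4% were called, 25.6% upward and 25.8% downward, against 46.3%, 29.3% and 17.1% of the members. These shares lie near the background, so the count alone says nothing particular about p53 targets. The median log2 change was 0.02 for the members that passed the floor and 0.01 for all tested. The groups did not overlap for 21 of the 41, with 13 above and 8 below, against 60.6% of all tested probe sets, 30.1% above and 30.5% below. Without 0 h replicate 3 the members called upward numbered 7, and with no floor also 7 of the same 41. With no floor the calls of 11715388_s_at (CDKN1A), 11753563_x_at (MDM2), 11757729_s_at (GDF15) and both of ZMAT3 ended. Without 0 h replicate 3 the call of 11757729_s_at held and that of 11731567_a_at (MDM2) ended instead. By gene, the upward calls were 5 of MDM2, 3 of PLK2, 2 of ZMAT3, 1 of GDF15 and 1 of CDKN1A, and the downward calls 3 of PPM1D, 2 of CCNG1, 1 of TIGAR and 1 of MDM2. Whether calls differ between genes was not tested.

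The suffix of a probe set's name tells what it can detect. Those ending in _s_at or _x_at can bind transcripts of more than one gene or hold probes with similar matches elsewhere, and those ending in _at or _a_at are assigned to one gene. Of the 22 members with the shared suffixes 20 were tested, with 7 higher, 3 lower and 10 not called. Of the 24 others 21 were tested, with 5 higher, 4 lower and 12 not called. Over all tested probe sets, 22.6% of those ending in _s_at were called higher and 35.4% lower. For _x_at these shares were 27.0% and 21.3%, for _at 20.9% and 26.5%, and for _a_at 27.7% and 24.0%. Whether the members differ from these shares was not tested. The plot of changes by probe set marks the shared suffixes and the others.

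**Figure D1:**
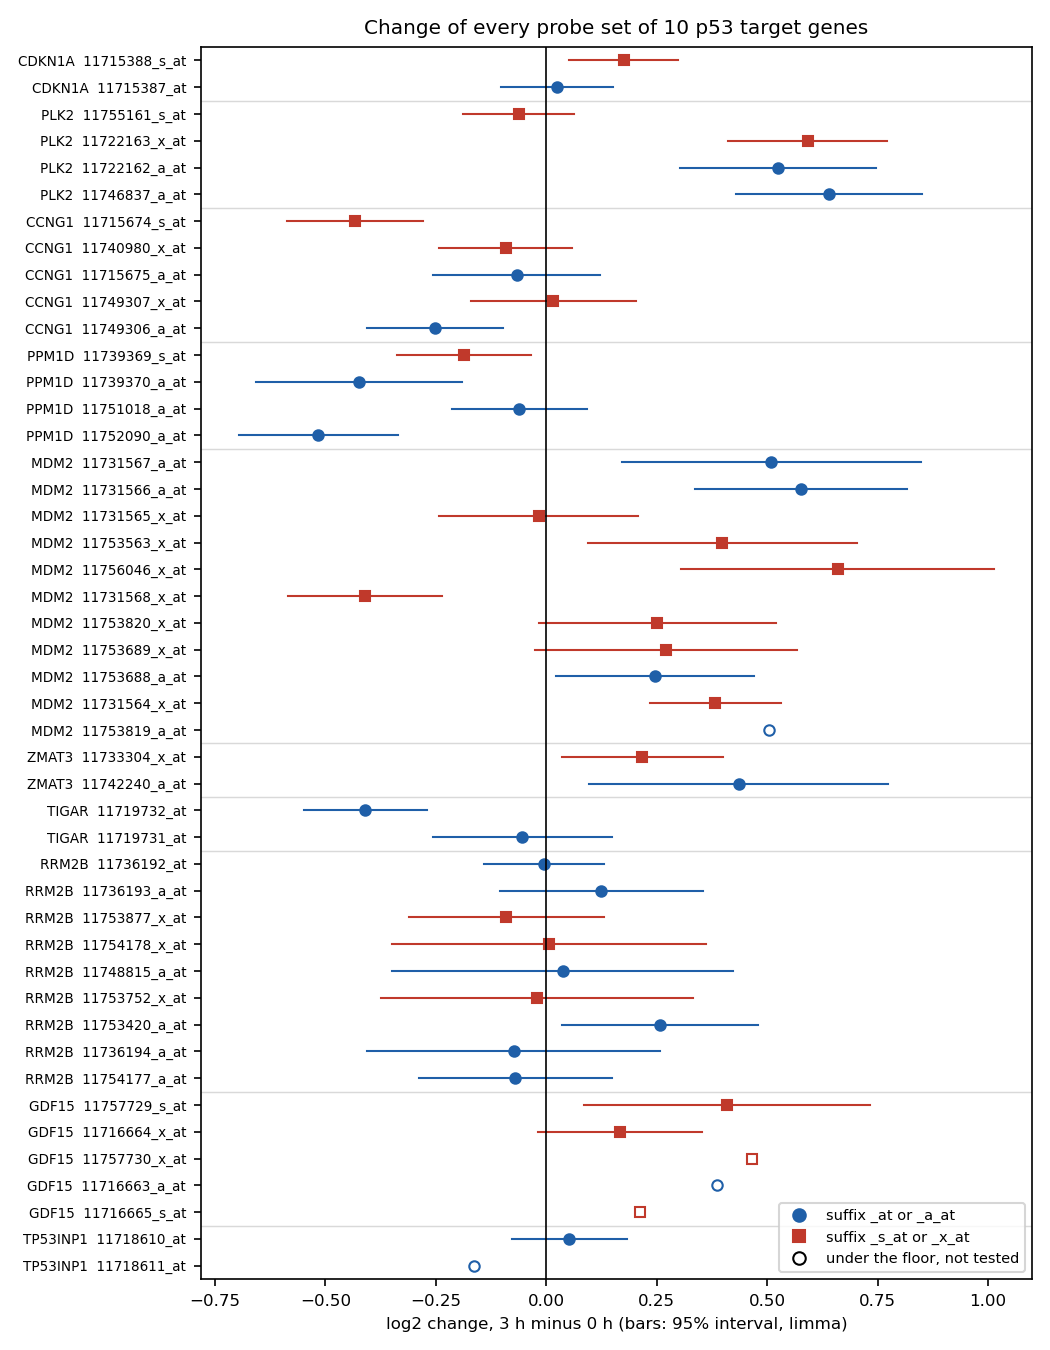
Log2 change (3 h minus 0 h, x axis) of each of the 46 probe sets (rows, grouped by gene) with its 95% interval from limma; red squares end in _s_at or _x_at, blue circles in _at or _a_at, and open symbols were under the floor and have no interval. For PLK2, 3 of the 4 probe sets lie between 0.52 and 0.64 while the fourth is at -0.06, and 1 MDM2 probe set lies at -0.41 while 9 others are above 0.

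MDM2 (chr12:68808172-68850686 in GRCh38.p14), the ubiquitin ligase that limits p53, had 11 probe sets, and 5 of the 10 tested rose. The one with the highest mean, 11731567_a_at, read 8.07, 8.11 and 7.80 at 0 h and 8.22, 8.47 and 8.82 at 3 h. All 3 h arrays were above all 0 h arrays, with a change of 0.51 (SE 0.15, n = 3, adjusted p = 0.0198 in limma). The call ended without 0 h replicate 3, where the change was 0.41. Probe set 11731566_a_at went from 7.07 ± 0.10 to 7.65 ± 0.20 (SD, n = 3), again without overlap. It was 1.49-fold higher (log2 0.58, SE 0.10, adjusted p = 0.00228), and its call held in all 13 alternatives. The third MDM2 probe set without a shared suffix, 11753688_a_at, differed by 0.25 (adjusted p = 0.0654). It overlapped between the groups and was called without 3 h replicate 2 (0.36). The fourth, 11753819_a_at, lay just under the floor and is described in the closing section.

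The probe sets of MDM2 with an _x_at suffix disagreed with each other. Those that rose were 11756046_x_at by 0.66, 11753563_x_at by 0.40 and 11731564_x_at by 0.38. The call of 11753563_x_at ended without 0 h replicate 1 (0.38) or 3 (0.36) and without 3 h replicate 2 (0.37) or 3 (0.27), and its groups overlapped. In contrast 11731568_x_at read 6.74, 6.66 and 6.54 at 0 h and 6.26, 6.14 and 6.31 at 3 h. All 3 h arrays lay below all 0 h arrays, and it fell by 0.41 (SE 0.08, adjusted p = 0.00253). The change of 11731565_x_at was -0.02 (95% interval -0.24 to 0.21), and those of 11753820_x_at and 11753689_x_at were 0.25 and 0.27 with adjusted p values of 0.105 and 0.112 (limma). Which exons each probe set reads was not analysed here.

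A test within genes asked whether these differences exceed the spread between arrays. For every gene with at least 2 probe sets above the floor, each probe set was set against the one with the highest mean, and 33.6% of 15014 such differences over all genes passed (limma). Over all genes 22.4% of the differences were higher than the probe set of highest mean and 11.2% were lower. Among the members 10 of 31 passed, near the share over all genes, so the count says nothing particular about these genes. Those of PLK2 (3), CCNG1 (3) and TIGAR (1) were higher, and those of MDM2 (2) and PPM1D (1) were lower. For MDM2 these were 11731568_x_at, whose change lay 0.92 below that of 11731567_a_at (difference -0.92, SE 0.14, adjusted p = 0.00378), and 11731565_x_at (difference -0.53). The latter was not called without 0 h replicate 3 or 3 h replicate 3, with -0.47 in both cases. On 3 h replicate 3, all 11 MDM2 probe sets had their highest value among the 3 h arrays, as had 36.7% of all tested probe sets. Over the 10 members together this was 33 of 46 probe sets (71.7%). Among the 0 h arrays, replicate 3 was the lowest for 8 of the 11, against 11933 of the 29576 tested. The cause of this array pattern was not tested.

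**Figure D2:**
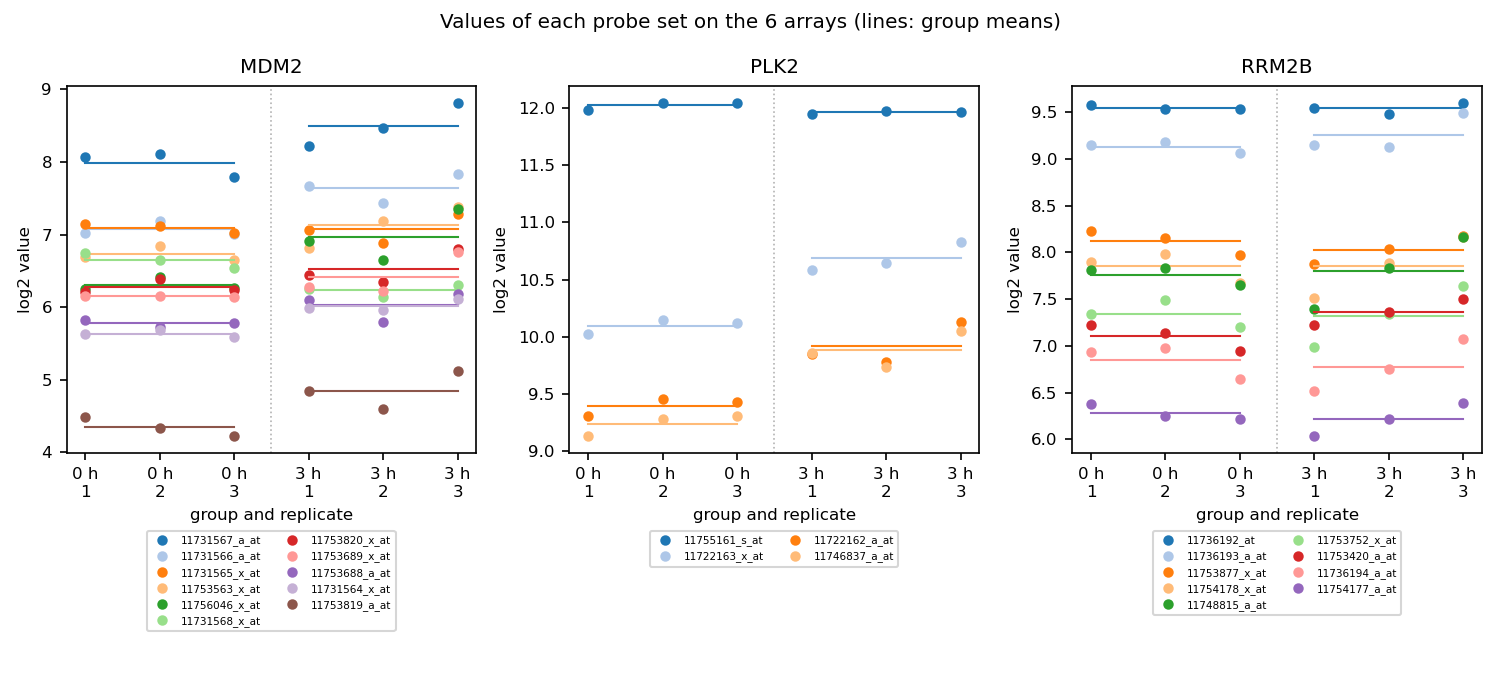
Log2 values (y axis) of every probe set of MDM2, PLK2 and RRM2B on the 6 arrays (x axis, group and replicate), with a line at each group mean. In all 3 genes most probe sets have their highest 3 h value on replicate 3, including 11 of 11 for MDM2 and 9 of 9 for RRM2B. Over all tested probe sets this share is 36.7%. The PLK2 probe set near 12 stays level while the other 3 rise.

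PPM1D (chr17:60600193-60666280) encodes WIP1, a phosphatase that switches off p53 and the kinases that activate it. It moved the other way from MDM2, with 3 of its 4 probe sets lower at 3 h and none higher. Probe set 11752090_a_at read 6.10, 6.11 and 6.11 at 0 h and 5.47, 5.75 and 5.56 at 3 h. The groups were well apart, and it was 1.43-fold lower (log2 -0.52, SE 0.08, adjusted p = 0.000989). Probe set 11739370_a_at went from 7.19 ± 0.12 to 6.76 ± 0.18 (SD, n = 3) and fell by 0.42 (adjusted p = 0.00870), again without overlap. The probe set with the highest mean, 11739369_s_at, fell by 0.19 (adjusted p = 0.0429), and this call ended without 0 h replicate 1 (-0.20) or 2 (-0.15) and without 3 h replicate 1 (-0.18) or 2 (-0.16). The remaining one, 11751018_a_at, was at -0.06 (95% interval -0.21 to 0.09). Within the gene 11752090_a_at differed from 11739369_s_at (difference -0.33, adjusted p = 0.0472), and that call ended when any array but 3 h replicate 2 was left out (-0.37 to -0.27). The other 2 did not pass, and 11739370_a_at was called without 3 h replicate 3 (-0.31).

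CDKN1A (chr6:36676463-36687332) encodes p21, the inhibitor of cyclin-dependent kinases through which p53 halts the cell cycle. Probe set 11715388_s_at read 11.35, 11.34 and 11.33 at 0 h and 11.54, 11.50 and 11.51 at 3 h. The groups were apart by more than their own spread, but the rise was small, 1.13-fold (log2 0.18, SE 0.05, adjusted p = 0.0247). The second, 11715387_at, has no shared suffix and carries the same transcript accession. It read 9.72, 9.68 and 9.71 against 9.70, 9.76 and 9.71, with overlapping groups and a change of 0.02 (95% interval -0.10 to 0.15). The change of 11715387_at lay 0.15 below that of 11715388_s_at (difference -0.15, adjusted p = 0.0955), which did not pass. The call of 11715388_s_at ended when any 0 h array (0.17 to 0.18) or 3 h replicate 1 (0.16) was left out, and with median centring of the arrays (0.14).

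PLK2 (chr5:58453982-58460086) encodes a polo-like kinase that acts at centrosomes and in the response to stress. Of its 4 probe sets 3 rose, by amounts close to those of the MDM2 probe sets with the largest changes. Probe set 11746837_a_at read 9.13, 9.28 and 9.31 at 0 h and 9.86, 9.73 and 10.05 at 3 h. It was 1.56-fold higher (log2 0.64, SE 0.09, adjusted p = 0.000750), with no overlap. Probe set 11722162_a_at went from 9.30, 9.45 and 9.43 to 9.85, 9.78 and 10.13 and rose by 0.52 (adjusted p = 0.00250), and 11722163_x_at rose from 10.10 ± 0.07 to 10.69 ± 0.13 (SD, n = 3), by 0.59. All 3 calls held in all 13 alternatives.

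The fourth PLK2 probe set, 11755161_s_at, has the highest mean of the gene and did not follow. It read 11.99, 12.04 and 12.05 at 0 h and 11.95, 11.97 and 11.96 at 3 h. The 3 h arrays were all slightly lower, with a change of -0.06 (95% interval -0.19 to 0.06, adjusted p = 0.368). Its change differed from those of the other 3 by 0.59 to 0.70 (adjusted p = 0.00204 to 0.00581, limma), and these 3 differences held in all 8 alternatives. A summary of PLK2 by its probe set of highest mean therefore gives -0.06, and the mean over its 4 probe sets gives 0.42 (adjusted p = 0.000685, limma).

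CCNG1 (chr5:163437571-163457640), cyclin G1, is a p53 target that takes part in the control of MDM2. Of its 5 probe sets 2 fell and none rose. Probe set 11715674_s_at read 10.50, 10.41 and 10.55 at 0 h and 10.04, 10.13 and 9.98 at 3 h. It fell by 0.43 (SE 0.07, adjusted p = 0.00109) with the groups apart. Probe set 11749306_a_at fell by 0.25 (adjusted p = 0.0136), from 8.89 ± 0.04 to 8.64 ± 0.09 (SD, n = 3). The other 3 overlapped between the groups, with changes of -0.09, -0.07 and 0.02. Each of these 3 differed from 11715674_s_at in its change (differences 0.34, 0.37 and 0.45, adjusted p = 0.0229 to 0.0368), and all 3 of these calls ended without 0 h replicate 1 (0.33 to 0.43) or 3 (0.28 to 0.41). For 2 of them the call also ended without 3 h replicate 3 (0.27 and 0.30), and for 11715675_a_at without 3 h replicate 2 (0.37).

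**Figure D3:**
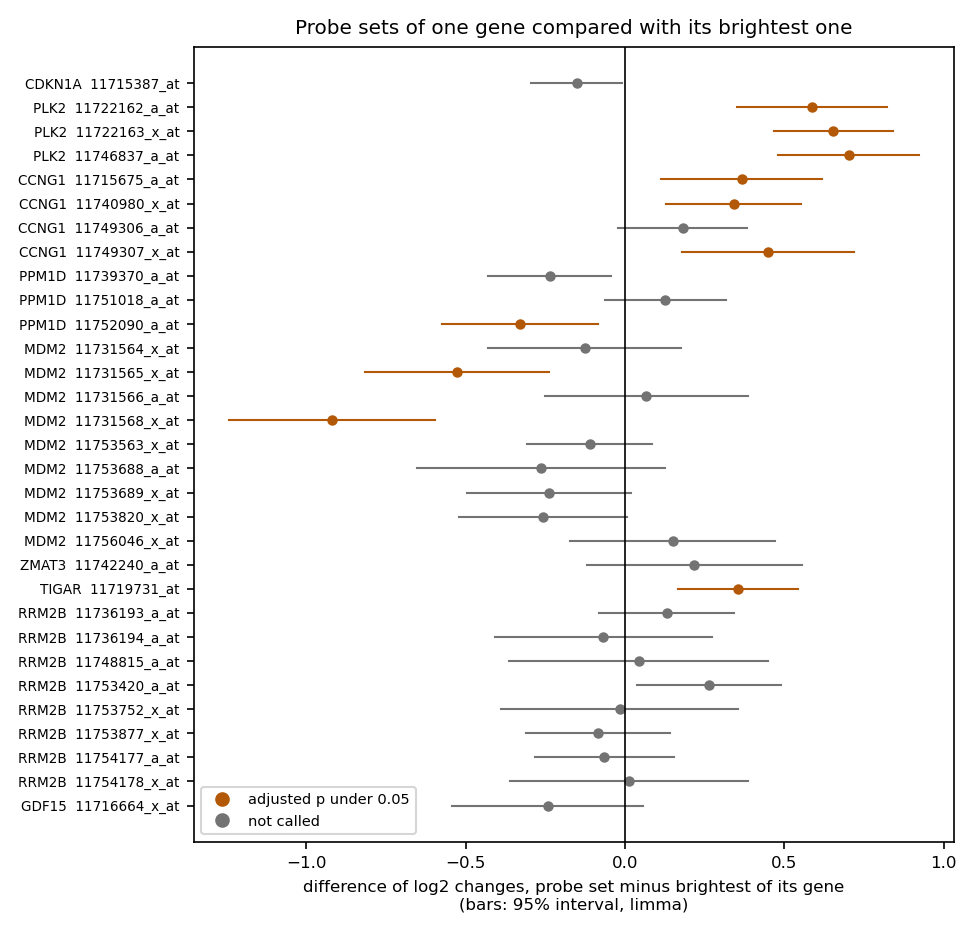
Difference between the log2 change of a probe set and that of the probe set with the highest mean in the same gene (x axis, with 95% intervals from limma) for the 31 member pairs above the floor (rows). Orange marks the 10 pairs with an adjusted p under 0.05: all 3 of PLK2, 3 of 4 for CCNG1, 2 of 9 for MDM2, 1 of 3 for PPM1D and the single pair of TIGAR.

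TIGAR (chr12:4321213-4360028) encodes a phosphatase that lowers fructose-2,6-bisphosphate and turns glucose towards the pentose phosphate pathway, which supplies NADPH against peroxide. Probe set 11719732_at read 9.18, 9.18 and 9.19 at 0 h and 8.69, 8.80 and 8.83 at 3 h. The 0 h arrays were nearly identical and all above the 3 h arrays, and it was 1.33-fold lower (log2 -0.41, SE 0.06, adjusted p = 0.000864). Probe set 11719731_at read 6.69, 6.72 and 6.68 against 6.47, 6.82 and 6.64, with overlap and a change of -0.05 (95% interval -0.26 to 0.15). The 2 changes differed by 0.36 (adjusted p = 0.0147), a call that ended without 0 h replicate 1 (0.35). Neither TIGAR probe set has a shared suffix.

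RRM2B encodes the p53-inducible small subunit of ribonucleotide reductase, which supplies nucleotides for DNA repair. None of its 9 probe sets passed in limma at an adjusted p of 0.05, and all 9 overlapped between the groups; 1 had an unadjusted p under 0.05. Their changes ran from -0.09 to 0.26. The probe set with the highest mean, 11736192_at, read 9.58, 9.53 and 9.54 at 0 h and 9.55, 9.48 and 9.60 at 3 h, with a change of -0.01 (95% interval -0.14 to 0.13). The largest change was that of 11753420_a_at (0.26, adjusted p = 0.0529), which was called without 0 h replicate 1 (0.32) or 3 h replicate 1 (0.33), with a floor at the 50th percentile and with trended, robust moderation. The 3 h arrays were spread widely: 11748815_a_at read 7.40, 7.84 and 8.16 there against 7.81, 7.83 and 7.65 at 0 h. On all 9 probe sets replicate 3 was the highest 3 h array, as it was for 36.7% of all tested probe sets. Replicate 3 was also the lowest 0 h array for 8 of the 9, against 11933 of the 29576 tested.

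ZMAT3 (chr3:179017223-179072513), an RNA-binding zinc finger protein, rose on both of its probe sets, by small amounts. Probe set 11742240_a_at read 5.67, 6.08 and 5.81 at 0 h and 6.06, 6.22 and 6.59 at 3 h, which overlap slightly, with a change of 0.44 (SE 0.15, adjusted p = 0.0372). Probe set 11733304_x_at went from 7.67 ± 0.04 to 7.89 ± 0.14 (SD, n = 3), a change of 0.22 with an adjusted p of 0.0490. Both calls depend on single arrays. That of 11742240_a_at ended without 0 h replicate 1 (0.34) or 3 (0.41) and without 3 h replicate 2 (0.47) or 3 (0.29), and with median centring (0.40). That of 11733304_x_at ended when any array but 3 h replicate 2 was left out (0.15 to 0.24), and with array weights (0.20), median centring (0.18) or quantile normalization (0.21).

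GDF15 (chr19:18386158-18389176), a secreted protein of the TGF-beta family that rises in many kinds of cell stress, was dim on this array. Probe set 11757729_s_at read 5.85, 6.17 and 6.30 at 0 h and 6.78, 6.37 and 6.39 at 3 h. The 3 h arrays were all higher, by a margin of 0.41 on average (SE 0.14, adjusted p = 0.0393). The call ended without 0 h replicate 1 (0.28) or 2 (0.44) and without 3 h replicate 1 (0.28), and with median centring (0.37) or quantile normalization (0.39). Probe set 11716664_x_at differed by 0.17 (adjusted p = 0.116) and was called without 3 h replicate 2 (0.23). The remaining 3 probe sets were under the floor, with changes of 0.21 to 0.46, so all 5 changes of the gene were above 0.

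TP53INP1 encodes a stress protein that modulates p53 activity and autophagy. Probe set 11718610_at read 8.04, 8.04 and 8.03 at 0 h and 8.07, 8.05 and 8.15 at 3 h. The 3 h arrays were all slightly higher, with a change of 0.05 (95% interval -0.08 to 0.18, adjusted p = 0.466). Its second probe set, 11718611_at, was under the floor, overlapped between the groups and differed by -0.16.

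With 1 probe set per gene, the one of highest mean, 4 of the 10 genes were called higher (CDKN1A, MDM2, GDF15 and ZMAT3), 3 lower (CCNG1, TIGAR and PPM1D) and 3 not at all. Of all 12221 genes tested 51.3% were called, 20.6% upward and 30.8% downward. With quantile normalization or median centring 2 members were called higher and 3 lower. Leaving out any single 0 h array left 1 member called higher, and leaving out 3 h replicate 1 left 2. Without probe sets of the shared suffixes the calls of CDKN1A (0.02) and CCNG1 (-0.07) ended, and that of CDKN1A also ended averaged over both of its probe sets (0.10). GDF15 could not be tested without shared suffixes, as its only other probe set was under the floor. PLK2, which rose on its other probe sets, is not among the calls of this summary. The profiles most like MDM2 over the 6 arrays, by the root mean square difference of centred log2 values among the genes tested, were those of LMAN1 (0.07), SYT8 (0.09) and AGO1 (0.10). For CDKN1A they were PSME1 (0.01), KDM3B (0.01) and NOLC1 (0.02).

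The rest of the pathway was described with lists of genes in the same fit of 1 probe set per gene. Among 28 tested regulators of p53, 5 rose and 14 fell (median log2 change -0.14, against -0.04 for all genes tested). CREBBP, an acetyltransferase that coactivates p53, rose by 1.42 (adjusted p = 1.13e-05, limma), and the acetyltransferase gene KAT5 rose by 0.49. SIRT1, a deacetylase, and CDKN2A, whose product ARF blocks MDM2, fell by 0.45 and 0.54. MDM4, the partner of MDM2 that also restrains p53, went from 6.55 ± 0.09 to 6.34 ± 0.01 (SD, n = 3) and fell by 0.21 (adjusted p = 0.0187, limma). The call of MDM4 ended without 0 h replicate 1 (-0.16), and averaged over its 6 probe sets the change turned to 0.14. Averaged in the same way CREBBP stood at 0.68 and CDKN2A at -0.16, and over the list 8 rose and 9 fell. Shares over all genes are given here for the main fit only. Counts from other fits, in this list and those below, therefore have no background beside them.

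Of 15 tested targets that act in cell death 6 rose and 4 fell (median -0.06), and 2 fell without probe sets of the shared suffixes. TNFRSF10B, the death receptor DR5, rose by 0.58 but stood at -0.050 without probe sets of the shared suffixes. AEN, an apoptosis-enhancing nuclease, rose by 0.31, TRIAP1, an inhibitor of apoptosis, fell by 0.31, and SIVA1 fell by 0.40 but turned to 0.039 averaged over its probe sets. Of 7 DNA repair targets 0 rose in limma, also at an unadjusted p of 0.05, and 2 fell. ASCC3, a helicase of alkylation repair, fell by 0.79, and REV3L, the catalytic subunit of polymerase zeta, fell by 0.62. With every probe set averaged, the 2 genes stood at -0.21 and -0.05. In that average 1 gene of the list fell, ASCC3, and 2 rose, POLH (0.17) and FANCC (0.22), both named after their values were seen. Without 0 h replicate 2 or without 3 h replicate 3, 1 gene rose. XPC and DDB2, which recognise damage in nucleotide excision repair, differed by 0.16 and 0.11 (adjusted p = 0.0910 and 0.166, limma), and XPC was called without 0 h replicate 2 (0.21). Of 20 targets in arrest, metabolism and signalling 5 rose and 9 fell (median -0.06), or 8 and 5 averaged over all probe sets. Without 0 h replicate 1 or without 0 h replicate 2, 4 of them fell. SESN2, a sestrin that restrains mTORC1, rose by 0.79, SUSD6 by 0.67 and the membrane protein gene CD82 by 0.65, while TRIM22 fell by 0.26. CD82 and TRIAP1 had no probe set without a shared suffix to test.

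Downstream of p21, 17 cyclins, kinases and RB or DREAM complex genes were tested, with 2 higher and 8 lower (median -0.16). CCND1, cyclin D1, rose by 1.38 and its kinase partner CDK4 by 0.39, while the other partner CDK6 fell by 0.79 and CCNE2, cyclin E2, by 0.59. Averaged over all probe sets the counts were 1 higher and 3 lower, with CDK4 at 0.02, CDK6 at -0.11 and CCNE2 at -0.12. The share of all genes called in this averaged fit is not given here. Of 22 cell cycle genes that p53 lowers through p21, 5 rose and 6 fell (median -0.06). BUB1, BUB1B and TTK, kinases of the spindle checkpoint, fell by 0.49, 0.44 and 0.38, and E2F1, an S phase factor, rose by 0.33. With quantile normalization or median centring, and without 0 h replicate 1 or 2 or 3 h replicate 1 or 2, 3 of this list rose.

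Relatives of the members, genes with similar products that are not classed as core targets, gave 7 higher and 4 lower of 18 tested (median -0.05). RRM2, the S phase counterpart of RRM2B, rose by 0.32 but stood at 0.05 without probe sets of the shared suffixes. CCNI, cyclin I, rose by 0.38, PLK1, the mitotic polo-like kinase, by 0.34, and PFKFB3, which makes the fructose-2,6-bisphosphate that TIGAR removes, by 0.36. Without 0 h replicate 1 the relatives called lower numbered 2, and without 0 h replicate 2 they numbered 1. The plot of calls by list sets these shares beside those of all genes.

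**Figure D4:**
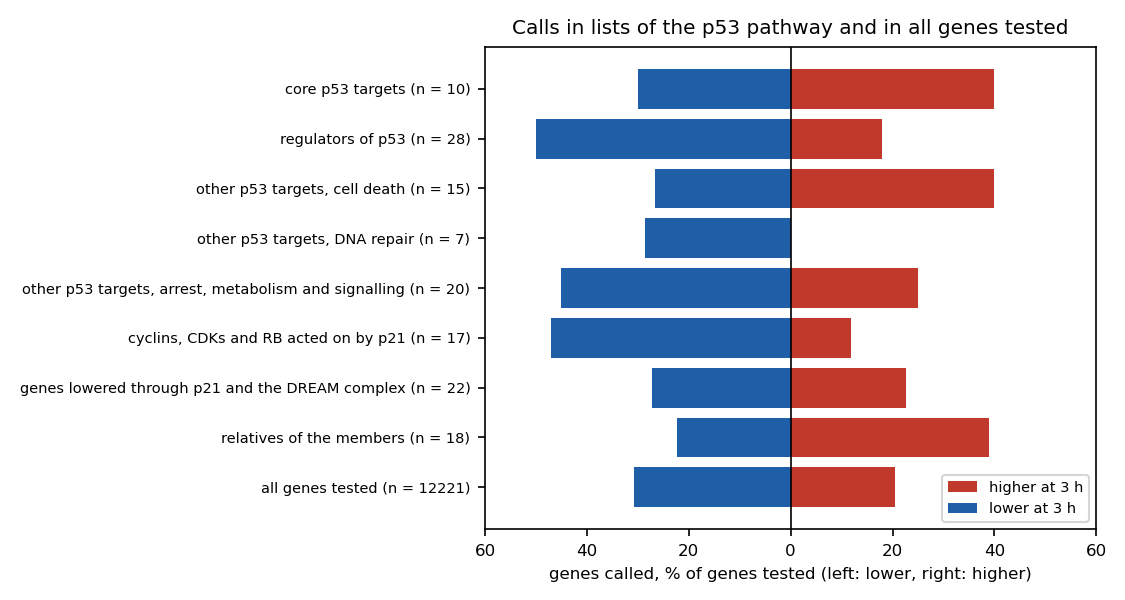
Percentage of tested genes called higher (red, to the right) or lower (blue, to the left) at 3 h in each list of the p53 pathway and in all 12221 genes tested (limma, 1 probe set per gene). Regulators of p53 (14 of 28 lower) and cyclins, kinases and RB genes acted on by p21 (8 of 17 lower) reach furthest left, against 30.8% lower over all genes.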

How the data were processed

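The labels' protocols describe total RNA labelled with a GeneChip 3′ IVT PLUS kit; each sample is 1 array. The deposited values are on a log2 scale, as read from the values, for 49372 probe sets. MAS5 and RMA are named in the submitters' processing notes, without role or order, so how background and scaling were handled is unknown here. Sample titles gave the groups. Symbols came from the platform annotation, and Entrez identifiers of all 46 member probe sets matched GRCh38.p14.

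After 79 control probe sets were left out, those with a mean at or above the 40th percentile (log2 4.64) entered limma 3.58.1 (lmFit, eBayes; R 4.3.3), and p-values were adjusted by Benjamini-Hochberg over 29576 probe sets, with calls at 0.05. Further fits took the probe set of highest mean of each gene (12221 genes) and the difference of each other probe set from it (15014). "Rose" and "fell" refer to calls. With 3 arrays a group, precision is limited: the SD of a probe set had a median of 0.07 at 0 h and 0.09 at 3 h. When the probe set fit was tested on simulated data (29576 probe sets, 3 h against 0 h), it called 95 of 100 changes of 1 and 60 of 100 changes of 0.5. Only these simulated probe sets were changed, while 51.4% were called in the real data. With so few changed the adjustment is stricter, so these rates may not apply to the real fit.

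The members and lists were chosen with earlier results of these data known. Text names were set by rule: all members, the 4 genes of smallest p in each pathway list, MDM4, called markers, and the 3 nearest profiles for MDM2 and CDKN1A. The p53 gene itself is not analysed here. The looser motif search was added after the stricter one gave no match. Alternatives varied the scaling, floor, variance moderation, array weights, choice of probe set, replicate block and arrays left out. Promoters came from RefSeq (GRCh38.p14). Figures used matplotlib 3.10.9.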

Additional observations from a re-analysis of the deposited data

Results flagged for a closer look

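A total of 3 member probe sets under the floor, which no comparison above uses, had every 3 h array above every 0 h array. MDM2 11753819_a_at went from 4.35 ± 0.13 to 4.85 ± 0.26 (SD, n = 3), a difference of 0.50. GDF15 11757730_x_at differed by 0.46, from 4.23 ± 0.08 to 4.69 ± 0.20 (SD, n = 3). GDF15 11716663_a_at, the only one of that gene without a shared suffix, differed by 0.39, from 4.05 ± 0.04 to 4.44 ± 0.10. With no floor, all 3 passed the limma test with adjusted p values of 0.0202, 0.0107 and 0.00532. They were picked for their lack of overlap in the same values, so these passes are no separate support. The remaining members under the floor, GDF15 11716665_s_at and TP53INP1 11718611_at, overlapped between the groups. Neither passed with no floor (adjusted p = 0.132 and 0.454, limma).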

How the results depend on the processing

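The members called lower numbered 6 or 7 in all 13 alternatives of the probe set fit, with 7 in the main one. Those called higher (12) numbered 7 of the same 41 with no floor and 7 to 12 when single arrays were left out. Members called higher with 1 probe set per gene (4) numbered 2 with quantile normalization, with median centring or with no floor, and 1 to 4 when single arrays were left out. The choice of probe set turned PLK2 from -0.06 to 0.42 (mean over all) and 0.52 (without shared suffixes), and MDM2 from 0.51 to -0.018 (only shared suffixes). Without shared suffixes the calls of CDKN1A (0.18 to 0.02) and CCNG1 (-0.43 to -0.07) ended, and averaged over all probe sets that of CDKN1A did (0.10). GDF15 had no probe set left to test without shared suffixes. The same holds for SIRT1, TRIAP1, CD82, TTK, KRT8 and KRT18, whose calls rest on shared suffixes only. Averaged over all probe sets MDM4 turned to 0.14, SIVA1 to 0.039 and the neuronal marker SYT1 to 0.062. TNFRSF10B turned to -0.050, SIVA1 to 0.14 and the photoreceptor gene PDE6B to 0.11 without shared suffixes. Same-numbered samples did not deviate together (correlations -0.01, -0.04 and -0.19), so the number was not taken as a pairing. With the replicate number as a block, 10 member probe sets were called higher and 6 lower, and those that differ from the brightest of their gene numbered 6 instead of 10. The latter numbered 5 to 12 when single arrays were left out. The cause of these shifts was not tested. Low signal limits GDF15 most, with 3 of 5 probe sets under the floor.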
